A study of Homo sapiens with 10 samples.

Results

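The genes described here mark how epithelial or how mesenchymal a carcinoma cell is, together with a set of contractile genes. Of 50 genes listed by name, 47 had a probe set annotated to that gene alone and were measured, among 19775 genes in all. They comprise 28 epithelial, 12 mesenchymal and 7 contractile genes. KRT17, ESRP2 and FOXC1 were not analysed here. The brightest probe set, by its mean across all 10 arrays, stands for each gene. Members were listed by name, with earlier results of these data known.

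The samples were MDA-MB-231 cells, an established human triple-negative breast cancer line with a spindle-shaped, mesenchymal-like form. The parental cells, sensitive to SM-164, were grown in culture. SM-164 is a bivalent Smac mimetic, a compound that antagonises the inhibitor of apoptosis proteins. SCID mice, which lack functional B and T lymphocytes, carried xenografts of the line and were dosed for 2 weeks with 5 mg/kg SM-164 by vein, 5 days in each week. Tumours that had regressed grew back after dosing ended, and cells were isolated from 4 of these regrown tumours. The labels call tumours T2 and T3 resistant and tumours T6 and T8 sensitive to SM-164. RNA of the parental cells and of each tumour was hybridised to 2 Affymetrix arrays, 10 in all. No group holds xenografts that were never treated, so growth in the mouse, the drug, regrowth and the isolation of cells cannot be told apart in a difference from parental cells. Whether both arrays of each line stem from independent cultures is not stated, so p-values over arrays measure the spread between arrays, which may be technical. In these bulk samples, fewer cells of a type and less RNA per cell cannot be told apart.

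Epithelial cells are held together by tight junctions of claudins and occludin, by E-cadherin in adherens junctions and by desmosomes anchored to keratin filaments. In an epithelial-mesenchymal transition, transcription factors of the SNAI, ZEB and TWIST families bind E-box motifs in the promoters of such genes and lower their expression, while vimentin, fibronectin and other cadherins increase. Contractile proteins such as transgelin, smooth muscle actin, calponin and tropomyosins rise in many cells that spread or that respond to TGF-beta or to serum response factor, and basal breast cells express several of them. Carcinoma cells often hold markers of both states at the same time.

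Values are log2 expression as the authors deposited it, so a difference of 1 is a doubling. A gene is called changed at a Benjamini-Hochberg adjusted p below 0.05 in a limma fit over all 19775 genes. A gene that was not called is not shown to be unchanged. Errors are standard errors (SE) of that fit, from 8 tumour arrays against 2 parental arrays unless stated. Within a line the 2 arrays correlated at 0.9972 to 0.9986 over all genes. Between 14096 and 14640 genes reached log2 5 on an array, a level used here as the edge of background. Among the members, 6 stayed below log2 5 on every array: the epithelial genes CDH3, KRT16 and GRHL2 and the mesenchymal genes TWIST1, TWIST2 and PRRX1. Differences in these 6 genes were close to the noise of the arrays.

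As a check of the labels, the line's known high genes were high. VIM, CD44, AXL and MSN had parental means of 14.13, 12.49, 12.88 and 12.29. Of 10 genes described as low or lacking in this line, only FOXA1 and PGR were below log2 5 on every array. CDH1 was near that level, with a parental mean of 5.04. The others read higher, with parental means of 6.71 for ESR1, 6.92 for CLDN3, 8.40 for EPCAM, 8.82 for GATA3, 8.90 for CLDN4, 9.12 for CLDN7 and 9.26 for ERBB2. An array level does not give an absolute amount, and the low list bore out the labels in part only.

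Against the mean of the parental cells, the 4 tumour lines moved epithelial genes in both directions. Occludin, claudin 1, CD24 and plakophilin 2 rose, whereas MUC1, KRT80, claudin 4 and plakoglobin fell. Mesenchymal genes divided too, with SNAI2 and CDH11 lower and vimentin slightly higher. Among contractile genes TAGLN rose by 2.59, the largest change of any member, while ACTA2 was 0.08 higher with an SE of 0.10 and an adjusted p of 0.6036. In all, 12 members rose and 10 fell, where 18.9% of all genes tested rose and 13.4% fell. That makes 46.8% of the members called. By class, 5 of 28 epithelial genes rose and 7 fell, 4 of 12 mesenchymal genes rose and 2 fell, and 3 of 7 contractile genes rose and 1 fell. The median difference was -0.04 over epithelial, -0.01 over mesenchymal and 0.08 over contractile genes, against -0.03 over all genes. The median absolute difference was 0.25, 0.22 and 0.23 in the 3 classes, against 0.15 over all genes. Each class thus held members called in both directions. After a repeated quantile normalisation 12 members rose and 13 fell, and among all genes the share of calls that were rises went from 58.6% to 47.7%.

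**Figure D1:**
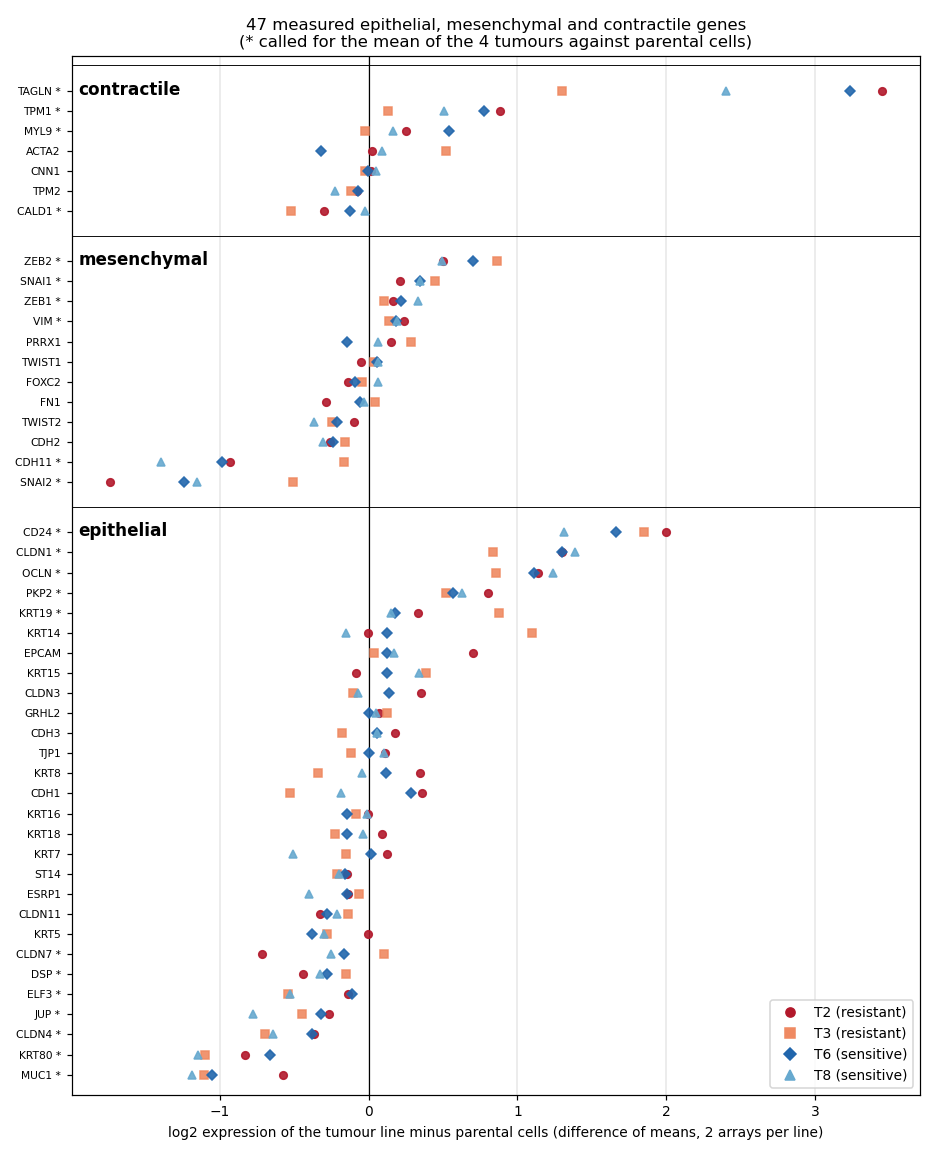
Difference in log2 expression between each regrown tumour line and parental cells for all 47 measured genes, by class and ordered by the mean of the 4 tumours; each symbol is a difference of line means (2 arrays per line), and an asterisk marks genes called for the 4 tumours together. TAGLN lies farthest to the right and SNAI2 farthest to the left, and the epithelial genes spread to both sides of 0.

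Tight junction genes showed the division within the epithelial class most clearly. OCLN encodes occludin, a membrane protein of the tight junction strand (GRCh38.p14 chr5:69492547-69558104). It read 8.42 and 8.35 on the parental arrays, 9.42 and 9.62 in T2, 9.17 and 9.31 in T3, 9.57 and 9.42 in T6, and 9.65 and 9.60 in T8. All 8 tumour arrays were above both parental arrays, and the tumour arrays lay within 0.5 of each other. The rise was 1.09 (SE 0.07, adjusted p = 3.34e-09). CLDN1 encodes claudin 1, a sealing claudin (chr3:190305707-190322446). It read 6.59 and 6.75 in parental cells, 7.75 and 8.19 in T2, 7.35 and 7.67 in T3, 7.99 and 7.95 in T6, and 8.09 and 8.02 in T8. The rise of 1.21 (SE 0.11, adjusted p = 2.12e-07) was present in every tumour, with T3 the lowest. With each tumour taken as 1 replicate OCLN was still called (adjusted p = 0.0453), while CLDN1 was not (adjusted p = 0.0708).

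Other claudins did not follow. CLDN4, also a barrier-forming claudin, read 8.98 and 8.83 in parental cells, 8.51 and 8.57 in T2, 8.18 and 8.23 in T3, 8.54 and 8.51 in T6, and 8.30 and 8.23 in T8. Every tumour array was below both parental arrays, a fall of 0.52 (SE 0.07, adjusted p = 1.38e-05). CLDN7 fell by 0.26 (SE 0.07, adjusted p = 0.0056), but its arrays overlapped. T3, at 9.15 and 9.29, was at the parental level of 9.08 and 9.16, and T2, at 8.47 and 8.34, was the lowest line. CLDN3 was 0.08 higher and CLDN11 0.24 lower, neither called. TJP1, which encodes the scaffold protein ZO-1 beneath the strands, was 0.02 higher (adjusted p = 0.815).

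Adherens junction and desmosome genes were also divided. CDH1 encodes E-cadherin, the defining cadherin of epithelial cells (chr16:68737292-68835537), and stayed near the edge of background. It read 5.13 and 4.95 in parental cells, 5.36 and 5.44 in T2, 4.47 and 4.55 in T3, 5.46 and 5.19 in T6, and 4.83 and 4.88 in T8. T2 and T6 were above the parental arrays and T3 and T8 below them, so the mean difference was -0.02 (SE 0.11, adjusted p = 0.922), and its sign turned under a repeated quantile normalisation (0.03) and under median centring (0.01). In the desmosome, PKP2, encoding the plaque protein plakophilin 2, read 8.16 and 7.92 in parental cells, 8.69 and 8.999 in T2, 8.49 and 8.63 in T3, 8.66 and 8.55 in T6, and 8.82 and 8.51 in T8. It rose by 0.63 (SE 0.10, adjusted p = 8.03e-05), with no overlap between tumour and parental arrays. The other plaque genes went down. JUP, encoding plakoglobin of desmosomes and adherens junctions, fell by 0.45 (SE 0.07, adjusted p = 9.70e-05), and DSP, encoding desmoplakin, which ties the plaque to keratin, fell by 0.30 (SE 0.07, adjusted p = 0.0031). JUP was lowest in T8, at 7.67 on both arrays against 8.47 and 8.43 in parental cells.

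The promoters of 4 junction and surface genes are shown because these genes moved in opposite directions and differ in E-boxes, the motif that SNAI and ZEB factors bind. They were picked after the values were seen. Each sequence runs from 250 bases before to 50 after the annotated start (RefSeq, GRCh38.p14), 5′ to 3′ on the gene's strand, with the letters CACCTG or CAGGTG in capitals. OCLN lies at chr5:69492297-69492596 on the plus strand, CLDN1 at chr3:190322397-190322696 on the minus strand, DSP at chr6:7541421-7541720 on the plus strand and MUC1 at chr1:155192866-155193165 on the minus strand.
OCLN: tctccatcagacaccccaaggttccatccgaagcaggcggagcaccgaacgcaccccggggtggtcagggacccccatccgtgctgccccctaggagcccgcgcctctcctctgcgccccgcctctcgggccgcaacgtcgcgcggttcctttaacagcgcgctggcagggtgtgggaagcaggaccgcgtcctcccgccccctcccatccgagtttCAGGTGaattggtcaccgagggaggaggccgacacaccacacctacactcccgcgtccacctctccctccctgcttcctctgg
CLDN1: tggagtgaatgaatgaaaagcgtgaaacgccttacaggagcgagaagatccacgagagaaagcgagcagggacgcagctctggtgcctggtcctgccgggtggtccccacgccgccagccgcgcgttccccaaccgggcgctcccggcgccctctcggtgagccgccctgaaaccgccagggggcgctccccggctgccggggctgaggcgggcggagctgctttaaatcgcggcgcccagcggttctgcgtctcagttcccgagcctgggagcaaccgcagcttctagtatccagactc
DSP: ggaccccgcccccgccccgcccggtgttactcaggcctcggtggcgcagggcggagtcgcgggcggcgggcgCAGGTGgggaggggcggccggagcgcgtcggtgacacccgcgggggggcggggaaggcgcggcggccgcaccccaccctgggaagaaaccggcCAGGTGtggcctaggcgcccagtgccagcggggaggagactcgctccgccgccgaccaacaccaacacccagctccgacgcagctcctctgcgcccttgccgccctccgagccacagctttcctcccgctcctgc
MUC1: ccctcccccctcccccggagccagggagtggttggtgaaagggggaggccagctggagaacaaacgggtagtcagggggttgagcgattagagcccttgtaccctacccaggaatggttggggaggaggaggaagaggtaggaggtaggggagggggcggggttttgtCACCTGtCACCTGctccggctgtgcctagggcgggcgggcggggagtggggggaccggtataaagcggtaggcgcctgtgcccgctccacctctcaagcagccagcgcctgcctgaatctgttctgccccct
OCLN, which rose, holds 1 E-box, whose first base is at -33 from the start. DSP, which fell, holds 2 with first bases at -178 and -85, and MUC1, which fell, holds 2 at -82 and -75. CLDN1, which rose, has none in this window. These 4 genes were picked for their values and letters, so nothing is read from how the motif and the direction fall among them.

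Promoter windows were matched for 26 of the 47 members. TAGLN, MYL9, CDH1, CDH11, KRT14 and PKP2 were among the members without a window. The 6-letter E-box CACCTG or CAGGTG, the same motif read on either strand, was found in 7 of 14 matched epithelial genes (50%), in 1 of 7 mesenchymal genes (14.3%, ZEB1) and in 0 of 5 contractile genes, against 20.6% of all 27305 promoters of the table. In the wider lists described further on, it was in 5 of 20 matched epithelial genes (25%), 3 of 28 mesenchymal genes (10.7%) and 4 of 23 contractile genes (17.4%). Besides OCLN, DSP and MUC1, the epithelial genes with it were CLDN3, ELF3, KRT5 and TJP1. The 10-letter CArG box, bound by serum response factor, was searched as CC, 6 letters of A or T, and GG. It was in 0 of the 26 windows and in 1.29% of all promoters. Boxes that depart from these letters were not counted. TAGLN and MYL9, which had no window, were not examined for it. A match of letters is a description and not a binding site.

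Keratins, the intermediate filaments of epithelial cells, moved in single genes. KRT80, a type II keratin of differentiating epithelium, read 10.52 and 10.37 in parental cells, 9.58 and 9.65 in T2, 9.23 and 9.46 in T3, 9.81 and 9.76 in T6, and 9.30 and 9.31 in T8. It fell by 0.93 (SE 0.07, adjusted p = 1.28e-08) without overlap. KRT19, a simple-epithelium keratin that lacks the usual tail, rose. It read 12.08 and 12.09 in parental cells, 12.37 and 12.47 in T2, 12.91 and 13.01 in T3, 12.20 and 12.32 in T6, and 12.25 and 12.22 in T8. Its rise of 0.39 (SE 0.05, adjusted p = 1.33e-05) was largest in T3, and every tumour array was above the parental ones. The luminal pair KRT8 and KRT18 was not called, with differences of 0.02 and -0.08. Their probe sets can also read related transcripts, so these values are uncertain.

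KRT14, a keratin of basal and myoepithelial breast cells (chr17:41582279-41586895), stood highest in T3. It read 4.29 and 4.35 in parental cells, 4.48 and 4.16 in T2, 5.24 and 5.60 in T3, 4.43 and 4.46 in T6, and 4.07 and 4.27 in T8. Only the T3 arrays passed log2 5. T3 exceeded parental cells by 1.10 (SE 0.15, adjusted p = 2.61e-05), whereas the mean of the 4 tumours was 0.27 higher and not called (adjusted p = 0.097). KRT5, its usual filament partner, was 0.28 lower in T3 and not called.

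Surface proteins of epithelial cells went both ways. CD24 encodes a small glycosylated surface protein, low in the CD44-high, CD24-low breast cancer phenotype for which this line is known. It read 8.03 and 7.90 in parental cells, 9.87 and 10.06 in T2, 9.79 and 9.84 in T3, 9.61 and 9.65 in T6, and 9.24 and 9.33 in T8. The rise of 1.71 (SE 0.06, adjusted p = 5.68e-12) was seen on all 8 tumour arrays and was called with the tumour as replicate (adjusted p = 0.0347). MUC1, a membrane mucin of the apical surface, read 7.58 and 7.68 in parental cells, 7.08 and 7.03 in T2, 6.54 and 6.51 in T3, 6.56 and 6.60 in T6, and 6.38 and 6.51 in T8. It fell by 0.98 (SE 0.09, adjusted p = 2.00e-07), least in T2.

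EPCAM encodes the adhesion molecule used to capture epithelial tumour cells. It read 8.67 and 8.13 in parental cells, 8.96 and 9.25 in T2, 8.34 and 8.54 in T3, 8.57 and 8.47 in T6, and 8.67 and 8.47 in T8. T2 was above the rest and the other tumours overlapped the parental arrays. The 2 parental arrays differed enough to decide the result. The difference of 0.26 (SE 0.11, adjusted p = 0.0936) became 0.53 (adjusted p = 0.0015) without parental replicate 1 and -0.01 without parental replicate 2. Without T2 replicate 1 it was 0.29 and called (adjusted p = 0.0446). Of the epithelial regulators, ELF3, an epithelium-specific ETS factor, fell by 0.33 (SE 0.12, adjusted p = 0.0466) with overlapping arrays. ESRP1, a splicing regulator, and ST14, the surface protease matriptase, were not called. The 16 epithelial genes not called ranged from -0.24 to 0.27.

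**Figure D2:**
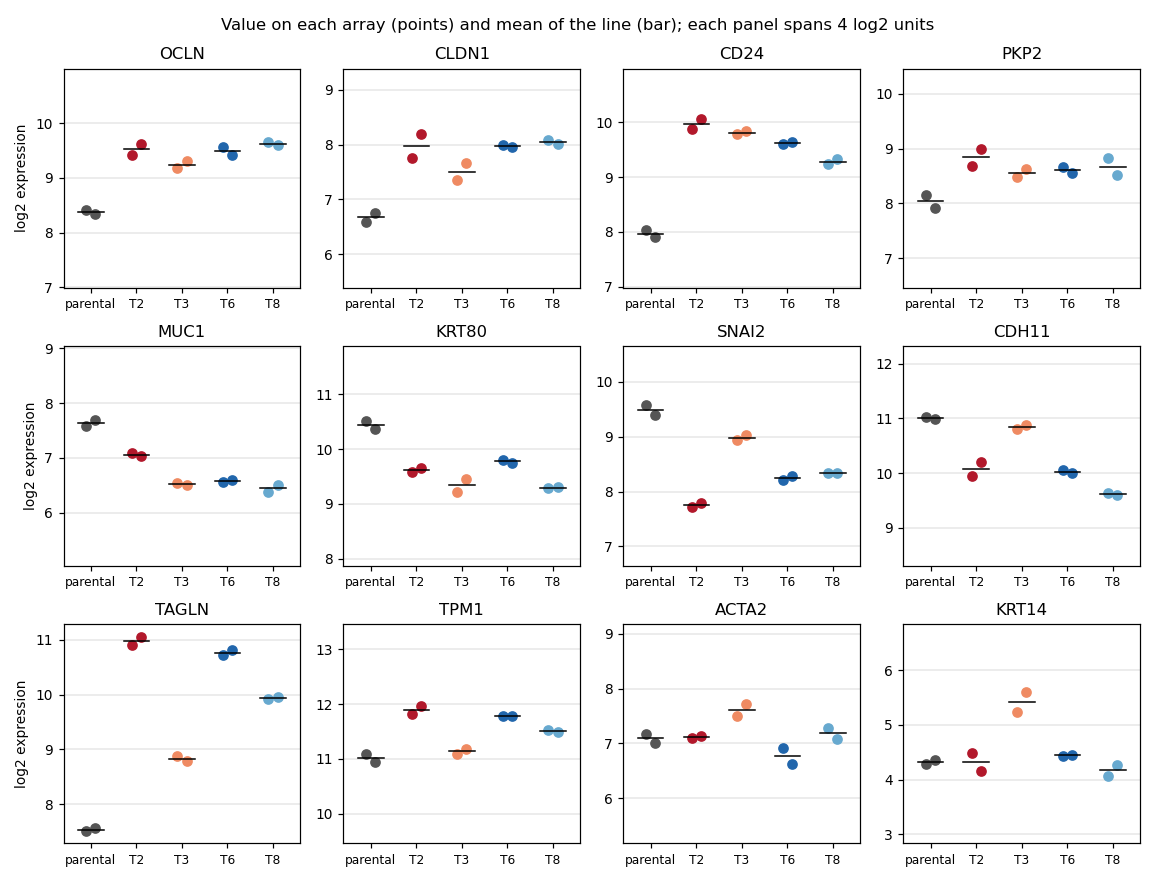
Log2 expression on every array (points) with the line mean (bar) for 12 members, in parental cells and the 4 tumour lines, 2 arrays each; every panel spans 4 log2 units. OCLN, CLDN1, CD24 and PKP2 are higher and MUC1 and KRT80 lower in all 4 tumours, whereas KRT14 stands out in T3 alone.

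Among mesenchymal genes the largest changes were falls. SNAI2 encodes Slug, a zinc-finger repressor of E-cadherin. It read 9.58 and 9.39 in parental cells, 7.71 and 7.79 in T2, 8.93 and 9.03 in T3, 8.22 and 8.29 in T6, and 8.33 and 8.34 in T8. All tumour arrays were below the parental ones, T2 farthest and T3 least, a mean difference of -1.16 (SE 0.07, adjusted p = 1.74e-09). CDH11, a cadherin of mesenchymal cells and osteoblasts (chr16:64943753-65123744), read 11.03 and 10.99 in parental cells, 9.95 and 10.20 in T2, 10.81 and 10.89 in T3, 10.06 and 9.996 in T6, and 9.64 and 9.60 in T8. It fell by 0.87 (SE 0.06, adjusted p = 1.23e-08), while T3 stayed within 0.2 of parental cells (difference -0.17, adjusted p = 0.1344). CDH2, encoding N-cadherin, was 0.24 lower and not called (adjusted p = 0.1328). In the mean of the tumours CDH1 showed no called rise while SNAI2 fell, but this mean hides differences between tumours. Against parental cells CDH1 was called lower in T3 (-0.53, adjusted p = 0.0065) and was not called in T2, T6 or T8. T2 minus T3 was 0.89 in CDH1 and -1.23 in SNAI2, both called. T6 minus T8 was 0.47 in CDH1, called, and -0.08 in SNAI2, not called. Whether SNAI2 acted on CDH1 was not tested.

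Vimentin, the intermediate filament of mesenchymal cells, changed little. VIM read 14.15 and 14.12 in parental cells, 14.38 and 14.37 in T2, 14.25 and 14.29 in T3, 14.29 and 14.34 in T6, and 14.32 and 14.32 in T8. The arrays did not overlap, and the rise of 0.19 (SE 0.04, adjusted p = 0.0014) was not called when the gene's probe sets were averaged (0.12, adjusted p = 0.1244). FN1, encoding fibronectin, was 0.08 lower and not called.

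The ZEB factors, zinc-finger homeobox repressors of epithelial genes, gave calls that did not hold. ZEB1 read 10.09 and 9.98 in parental cells, 10.06 and 10.34 in T2, 10.03 and 10.24 in T3, 10.28 and 10.22 in T6, and 10.36 and 10.37 in T8. T2 and T3 overlapped the parental arrays, and the rise of 0.20 (SE 0.07, adjusted p = 0.0361) lost its call in 9 of 19 alternative settings and turned to -0.0060 in another, the mean over its probe sets. It was not called without parental replicate 2 (0.15, adjusted p = 0.3131), nor without T3 replicate 2, either T6 array or either T8 array (0.18 to 0.21, adjusted p = 0.0519 to 0.0690). ZEB2 was near background, and its arrays differed by up to 1.09 within a line. It read 4.94 and 4.36 in parental cells, 5.07 and 5.23 in T2, 5.38 and 5.64 in T3, 5.67 and 5.02 in T6, and 5.69 and 4.59 in T8. Its rise of 0.64 (SE 0.22, adjusted p = 0.0367) was 0.35 without parental replicate 2 (adjusted p = 0.4352), and it was not called without T3 replicate 2 (0.61, adjusted p = 0.0674) or T6 replicate 1 (0.56, adjusted p = 0.0682). With less specific probe sets left out it turned to a fall of 0.31. SNAI1, encoding Snail, rose by 0.34 (SE 0.12, adjusted p = 0.0425), from 5.18 and 5.43 to between 5.48 and 5.90. The 6 mesenchymal genes not called lay between -0.24 and 0.09.

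Among the contractile genes 1 member, TAGLN, ranged more widely between lines than any other member, while the median range of line means was 0.56 in this class and 0.66 among epithelial genes. TAGLN encodes transgelin, an actin-binding protein of smooth muscle and of spreading cells (chr11:117199294-117207465). It read 7.51 and 7.56 in parental cells, 10.91 and 11.05 in T2, 8.87 and 8.79 in T3, 10.72 and 10.81 in T6, and 9.92 and 9.95 in T8. All tumours were above parental cells by more than 1, in the order T2, T6, T8, T3, and no 2 lines overlapped. The rise was 2.59 (SE 0.06, adjusted p = 2.02e-14). It was not called with the tumour as replicate (adjusted p = 0.1701), a fit in which the spread between tumours is the error.

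TPM1, encoding the actin-stabilising tropomyosin 1 (chr15:63042747-63071915), kept the same order of lines. It read 11.08 and 10.94 in parental cells, 11.81 and 11.97 in T2, 11.09 and 11.18 in T3, 11.78 and 11.78 in T6, and 11.53 and 11.50 in T8. T3 was within 0.3 of the parental arrays, and the mean rise was 0.57 (SE 0.05, adjusted p = 4.59e-07). MYL9, the regulatory light chain that drives non-muscle and smooth muscle contraction, rose by 0.23 (SE 0.05, adjusted p = 0.0017). T6 was highest, at 11.28 and 11.32 against 10.82 and 10.71 in parental cells, and T3, at 10.75 and 10.73, overlapped them.

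Other contractile genes were level or lower. ACTA2, encoding alpha smooth muscle actin (chr10:88935074-88991337), read 7.17 and 7.01 in parental cells, 7.09 and 7.13 in T2, 7.50 and 7.72 in T3, 6.92 and 6.62 in T6, and 7.28 and 7.08 in T8. Here T3, the lowest tumour in TAGLN, was highest and T6 was lowest, and the mean difference was 0.08. CALD1, encoding the actin-binding caldesmon, fell by 0.24 (SE 0.06, adjusted p = 0.0051) and was lowest in T3, at 11.08 and 11.21 against 11.75 and 11.59 in parental cells. T8 overlapped the parental arrays. CNN1, encoding calponin 1, and TPM2 were 0.01 and -0.12 from parental cells, neither called.

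Several of these genes had more than 1 probe set, 30 of 47 members in all. CD24 was higher in the tumours on each of its 6 probe sets, by 0.93 to 2.43. None of the 6 has a plain Affymetrix _at name, and reads of near-identical copies cannot be told apart. Probe sets with other names were treated here as less specific, though such a set may still read 1 gene alone. TAGLN had a probe set at 2.59 beside the chosen one, and another at 0.11. The last is the only one of the gene with a plain _at name. It stayed between 6.56 and 7.27 on all arrays, so with less specific probe sets left out TAGLN was not called (0.11, adjusted p = 0.4801). TPM1 then was at 0.20 (adjusted p = 0.1855) on a dimmer probe set. OCLN was higher by 0.72 to 1.09 on 3 of 4 probe sets, and CLDN1 by 1.21 and 0.58 on its pair. CDH11 was lower on all 4, and MUC1 on all 3 with -0.98, -0.72 and -0.16. CALD1 was lower on all 5 other probe sets that reached log2 5. Probe sets reaching that level lay on both sides of 0 in KRT19, ZEB1, FN1, KRT7, TPM2 and CLDN11. For KRT19 the chosen probe set gave 0.39 and the other, with a mean of 5.28, gave -0.13. Between classes, CLDN11 also differed by probe set. Resistant minus sensitive was 0.01 on the chosen one and -1.27 on a dim one with a mean of 4.05. On the dim one only the T6 arrays passed log2 5, and its difference was not tested.

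**Figure D3:**
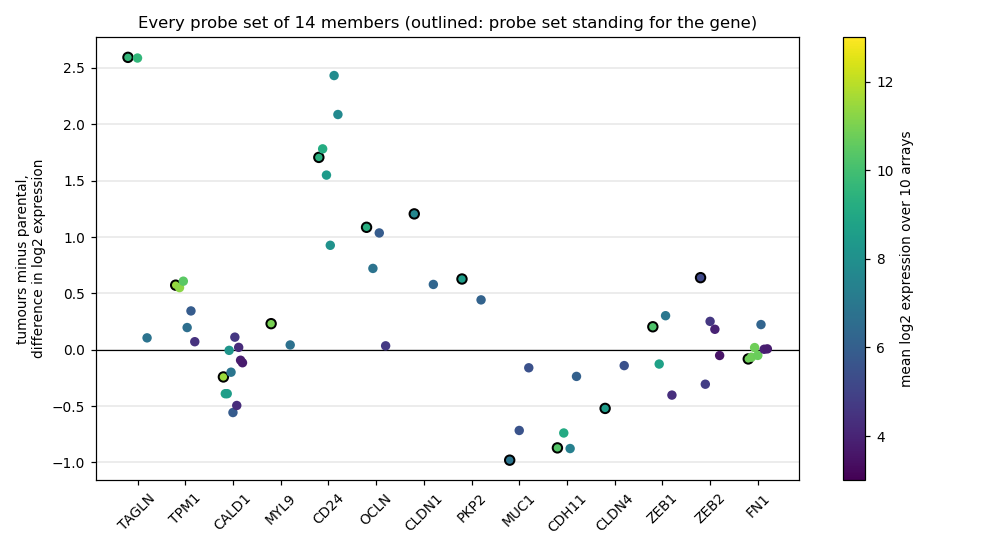
Difference in log2 expression between the mean of the 4 tumours and parental cells for every probe set of 14 members; colour gives the mean log2 expression over the 10 arrays and an outline marks the probe set used for the gene. All 6 probe sets of CD24 lie above 0, whereas those of TAGLN are at 2.59, 2.59 and 0.11.

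Each tumour was also set against the same 2 parental arrays. These 4 comparisons share those arrays and are not independent of each other. T2 had 11 members higher and 10 lower, where 12.9% and 11.6% of all genes were called. T3 had 11 higher and 10 lower, against 16.3% and 12.0%. T6 had 8 higher and 7 lower, against 15.0% and 10.7%, and T8 had 8 higher and 11 lower, against 21.1% and 12.4%. After a repeated quantile normalisation rises made up 47% of the calls over all genes in T6, where the deposited values gave 58.4%, and 47.6% in T8, where they gave 63.0%; the members then split 10 to 10 and 9 to 13. Epithelial genes were called in T2 as 7 higher and 6 lower, in T3 as 7 and 8, in T6 as 4 and 5, and in T8 as 4 and 8.

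The next question was whether the resistant tumours, T2 and T3, differed from the sensitive ones, T6 and T8. Over arrays (4 against 4), 7 members were higher and 3 lower in the resistant class, where 3.64% of all genes were higher and 10.1% lower. Under a repeated quantile normalisation 9 members were higher and 3 lower, and rises were 48.1% of all calls against 26.6% on the deposited values. The higher members were CDH11 (0.64), KRT14 (0.56), KRT19 (0.44), CD24 (0.43), ACTA2 (0.38), MUC1 (0.28) and KRT7 (0.23). Lower were TAGLN (-0.45), CALD1 (-0.34) and MYL9 (-0.24). With the tumour as replicate (2 against 2), no member and 0% of all genes were called by limma, although 1076 genes, among them 2 members, had an unadjusted p below 0.05. These members were CALD1 and CD24, each with an adjusted p of 0.820 in that limma fit, the smallest adjusted p of any gene. The median absolute difference was 0.09 over members and 0.11 over all genes.

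Several of these class differences rested on 1 tumour. CDH11, with 10.81 and 10.89, was high in T3 alone, and T2, at 9.95 and 10.20, overlapped T6. Its difference was 0.64 (SE 0.06, adjusted p = 1.73e-06) over arrays and had an adjusted p of 0.820 over tumours. KRT14 and KRT19 were highest in T3. In MUC1 the T3 mean of 6.52 lay between T8 (6.45) and T6 (6.58), with T2 at 7.06. The KRT7 mean was lower in T3 (11.75) than in T6 (11.92), with T2 at 12.02 and T8 at 11.40. For KRT19 all 4 resistant arrays were above all 4 sensitive ones (adjusted p = 9.61e-06). CD24 also kept the classes apart, at 9.79 to 10.06 against 9.24 to 9.65 (adjusted p = 1.39e-04). So did CALD1, which was lower in the resistant tumours, at 11.08 to 11.45 against 11.54 to 11.71. TAGLN had one resistant tumour at each end of its range, T2 highest and T3 lowest. Without T3 its class difference was 0.63 rather than -0.45, and with less specific probe sets left out it was 0.20. ACTA2 (SE 0.09, adjusted p = 0.0105) lost its call without T6 replicate 2 (0.31, adjusted p = 0.0773) and without T8 replicate 2 (0.33, adjusted p = 0.0542).

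Tumours that share a label also differed. Between the 2 resistant tumours, T2 was higher than T3 in 15 members and lower in 9 (2 arrays against 2), where 10.1% of all genes were higher and 12.5% lower. The median absolute difference was 0.28 over members and 0.14 over all genes. T2 exceeded T3 in TAGLN by 2.15 (SE 0.07, adjusted p = 4.55e-12), CDH1 by 0.89, TPM1 by 0.76, KRT8 by 0.69 and EPCAM by 0.66. T3 exceeded T2 in SNAI2, KRT14, CLDN7 and CDH11, where T2 minus T3 was -1.23, -1.10, -0.81 and -0.77. By class, 11 of 28 epithelial genes were higher in T2 and 5 lower, 0 of 12 mesenchymal genes were higher and 3 lower (SNAI2, CDH11 and FN1), and 4 of 7 contractile genes were higher and 1 lower.

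Between the sensitive tumours fewer members were called, with 9 members higher in T6 and 1 lower, where 3.31% of all genes were higher and 7.41% lower. Rises made up 48.1% of all calls after a repeated quantile normalisation and 30.8% before it, and the members then split 11 to 1. T6 was higher in TAGLN (0.83), KRT7 (0.52), KRT80 (0.48), CDH1 (0.47), JUP (0.46), CDH11 (0.41), MYL9 (0.38), CD24 (0.35) and TPM1 (0.27). ACTA2 was 0.41 lower in T6 than in T8 (SE 0.13, adjusted p = 0.0495). Without T6 replicate 1 only 5 members were called, and without T8 replicate 1 only 6. Calls over all genes fell too, from 654 higher and 1466 lower. They were 302 and 558 without T6 replicate 1, and 379 and 658 without T8 replicate 1. The median absolute difference was 0.13 over members and 0.12 over all genes.

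**Figure D4:**
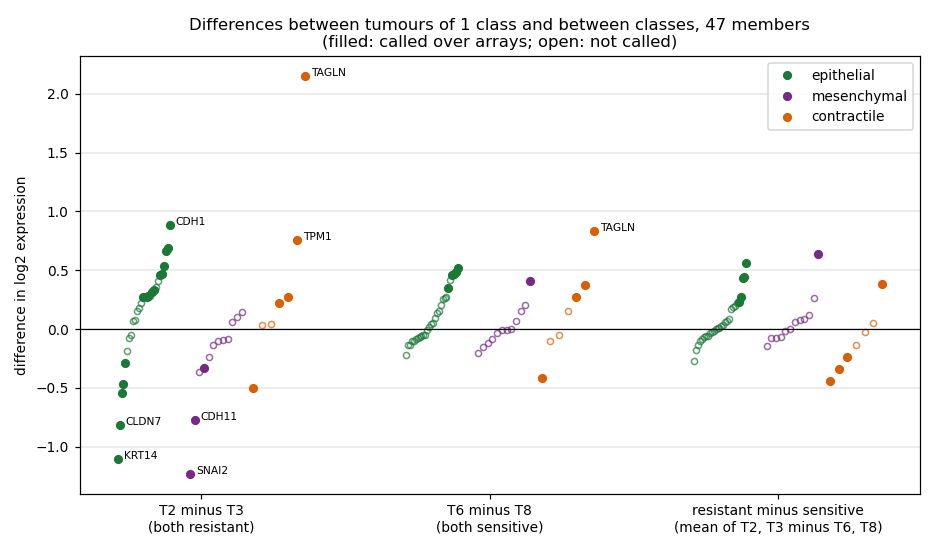
Differences in log2 expression for the 47 members between T2 and T3 (both resistant), between T6 and T8 (both sensitive), and between the means of the resistant and the sensitive tumours; each point is a gene, ordered by value within its class, filled where called over arrays. The spread is widest between T2 and T3, where TAGLN reaches 2.15 and SNAI2 -1.23.

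A wider set of 93 genes of the same programmes was examined beside the members. Of 32 further epithelial genes, 9 rose and 6 fell in the tumours against parental cells. KLF5, a transcription factor of epithelial progenitors, rose by 1.01 and the desmosomal cadherin DSC2 by 0.86. PPL, the desmosome-associated periplakin, was lower (-1.72), as was EHF, an epithelial ETS factor (-1.26). Of 34 further mesenchymal genes, 10 rose and 10 fell. The matricellular SPARC rose by 1.21 and the receptor TGFBR2 by 0.64, whereas the calcium-binding S100A4 (-2.25) and the collagen chain COL5A1 (-1.33) fell.

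Of 27 further contractile and serum-response-factor genes, 12 rose and 2 fell, where 18.9% and 13.4% of all genes did. The largest rise was ACTG2, gamma smooth muscle actin, which read 5.02 and 4.99 in parental cells and 6.72 to 7.57 in the tumours (2.00, SE 0.09, adjusted p = 4.32e-11). ANKRD1, a mechanically responsive nuclear protein, rose by 0.93. The kinase MYLK (-0.76) and vinculin, VCL (-0.22), fell. Promoter windows were matched for 23 of these 27 genes, and 6 (26.1%) held a CArG box. In the resistant against the sensitive tumours over arrays, 0 of the 27 were higher and 6 lower, where 3.64% and 10.1% of all genes were, and MYLK (-0.71) and CCN2 (-0.40) had the largest falls. Of the further epithelial genes 1 was higher (KLF5, 0.33) and 3 lower, with MAL2 (-0.58) and EHF (-0.55) lowest. Of the further mesenchymal genes 6 were higher, with WNT5A (0.59) and TNC (0.37) highest, and 7 lower, with SPARC (-1.79) and S100A4 (-0.82) lowest. With the tumour as replicate, limma called 0 of the 93 genes.

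**Figure D5:**
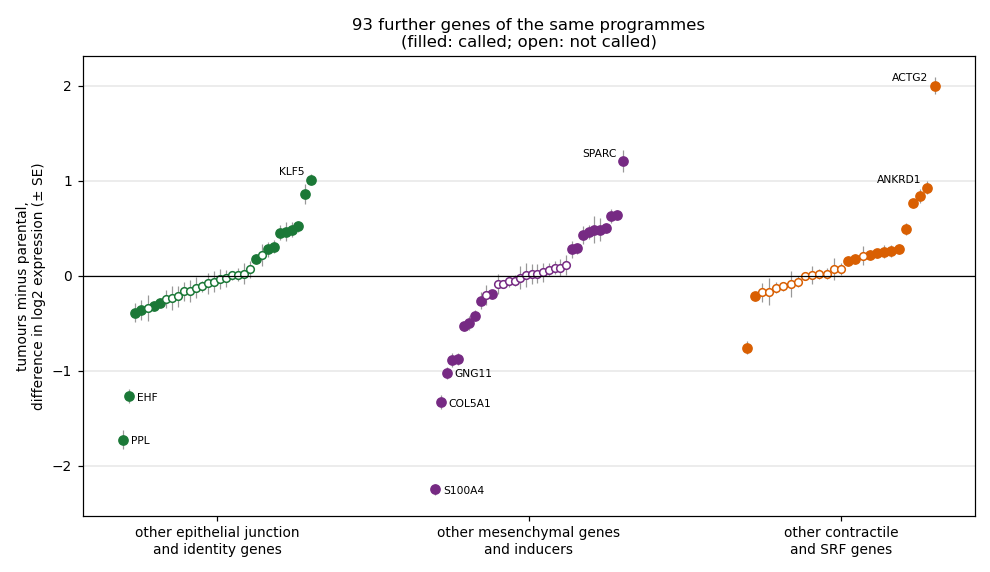
Difference in log2 expression between the mean of the 4 tumours and parental cells (points, with SE) for 93 further genes in 3 lists, ordered by value and filled where called. In the contractile list 12 genes rose and 2 fell, and in the mesenchymal list 10 rose and 10 fell.

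Markers of cells that a tumour could hold besides the cancer cells were read beside these groups, for the mean of the 4 tumours unless stated. In that mean 18.9% of all genes rose and 13.4% fell. Of 6 smooth muscle markers only ACTG2 rose and none fell, and DES, LMOD1, MYH11, MYOCD and SYNPO2 were not called. Their summed level was log2 8.23 to 8.25 on parental arrays and 8.47 to 8.81 on tumour arrays. Of 9 fibroblast and pericyte markers LUM rose and COL1A2 and DCN fell, with sums of 9.62 to 9.68 and 9.28 to 9.72, and COL3A1, FAP, LUM and PDGFRA were below log2 5 on every array. Of 5 endothelial markers CDH5, ENG and TIE1 rose and none fell (8.07 to 8.21 in parental cells, 8.21 to 8.59 in tumours). By tumour, only ENG was called in T2 and in T3. Of all genes 12.9% were higher and 11.6% lower in T2, and 16.3% and 12.0% in T3. T6 had 2 endothelial markers higher, where 15.0% of all genes were higher and 10.7% lower. T8 had 3 higher and 2 lower, where 21.1% and 12.4% of all genes were. In the resistant against the sensitive tumours over arrays, 2 endothelial markers were higher and 3 lower, where 3.64% and 10.1% of all genes were. Of 4 macrophage markers CSF1R and ITGAM fell and none rose (7.66 to 7.78 and 7.21 to 7.77). The probe sets are designed on human sequence, and the share of mouse RNA in the tumour samples was not tested.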

How the data were processed

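Total RNA of 10 samples was hybridised to Affymetrix arrays of 54675 probe sets. The deposited values are log2 expression that the authors made with RMA; affy and limma are also named, per the submitters' processing notes, and versions are not given in the sources used here. They were used as deposited. After 62 controls were left out, 41091 probe sets had 1 gene symbol in GEO's platform annotation, 1801 several and 11721 none; 41037 symbols were updated by Entrez number through RefSeq (GRCh38.p14). The brightest probe set by mean stood for each gene, with no filter on low values.

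limma 3.58.1 in R 4.3.3 was fitted to all 19775 genes with 1 coefficient per line and eBayes with an intensity trend, tested on simulated data. A further fit used the mean of each line, parental cells included, so parental cells had no replicate in it. Calls are at a Benjamini-Hochberg adjusted p below 0.05. Arrays carry no read depth, and their number limits the precision.

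The members, the wider lists and the tests were chosen with earlier results of these data known. Values on every array are given for called members differing by at least 0.5 from parental cells or 0.4 between classes, and for CDH1, EPCAM, VIM, ZEB1, SNAI2 and ACTA2; of the wider lists, the largest 2 rises and falls are named, and other members were named after their values were seen. Alternatives were repeated quantile normalisation, median centring, filters on low values, the mean over probe sets, leaving out less specific probe sets, no trend, a replicate block, the line as random block, and leaving out arrays or tumours.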

Additional observations from a re-analysis of the deposited data

Results flagged for a closer look

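Between the resistant tumours the difference was itself called, over arrays, in 14 of the members described array by array. Of all genes 10.1% were higher in T2 and 12.5% lower. Most members described in this way were picked for called differences on these same arrays, so such a count is not a rate for the whole list. T2 minus T3 was 2.15 in TAGLN, 0.89 in CDH1, 0.76 in TPM1, 0.66 in EPCAM, 0.53 in MUC1, 0.47 in CLDN1, 0.33 in CLDN4, 0.28 in OCLN and 0.27 in KRT80. It was -1.23 in SNAI2, -1.10 in KRT14, -0.77 in CDH11, -0.54 in KRT19 and -0.50 in ACTA2. In these 14 genes the rise or fall from the shared parental arrays therefore differed between both tumours labelled resistant.

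Between the sensitive tumours the difference was called in 7 of the members described array by array, where 3.31% of all genes were higher and 7.41% lower. T6 minus T8 was 0.83 in TAGLN, 0.48 in KRT80, 0.47 in CDH1, 0.41 in CDH11, 0.35 in CD24 and 0.27 in TPM1, and -0.41 in ACTA2.

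CLDN1 in T3 stood apart from the other 3 tumours: the gap to the nearest was 0.8433 of the range of the 4 line means. Chance sets such a gap in about 1 in 20 groups, and 19 members were examined.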

How the results depend on the processing

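With less specific probe sets left out, 37 members among 16782 genes could be tested. Against parental cells 13 members were called for T2, 11 for T3, 8 for T6 and 12 for T8. Of all genes 1881 rose and 1615 fell in T2, and 2276 rose and 1747 fell in T3. In T6 2157 rose and 1463 fell, and in T8 2994 rose and 1860 fell. T2 against T3 gave 14 called members, with 1426 of all genes higher and 1724 lower. T6 against T8 gave 4, with 453 of all genes higher and 906 lower. With the tumour as replicate 2 members, CD24 and OCLN, were called against parental cells, where 114 of all 19775 genes rose and 92 fell. With the line as a random block (correlation 0.355), 0 members were called between classes, where 3 of all genes were higher and 5 lower. Without tumour T2, the class difference of KRT14 over tumours was 1.11 rather than 0.56. T3 alone then stood for the resistant class, so the spread within that class could not be measured. Leaving out 1 array in turn gave these counts of called members, with all genes higher and lower in brackets. Against parental cells they were 17 to 23 for the tumours (2401 to 4127, 1593 to 2890). They were 19 to 21 for T2 (1828 to 2702, 1849 to 2320) and 17 to 22 for T3 (2023 to 3449, 1861 to 2499). For T6 they were 12 to 17 (1919 to 3238, 1152 to 2361) and for T8 14 to 22 (2873 to 4430, 1324 to 2621). Between classes over arrays they were 8 to 14 (297 to 947, 1003 to 2501). For T2 against T3 they were 19 to 24 (1530 to 2075, 1546 to 2678), and for T6 against T8 5 to 10 (302 to 747, 558 to 1721).

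With a replicate block, counts against parental cells were 21 (all tumours), 21 (T2), 20 (T3), 16 (T6) and 19 (T8). They were 10 between classes, 23 for T2 against T3 and 8 for T6 against T8. Of all genes, 3637 then rose and 2426 fell in the tumours. Between classes 554 were higher and 1811 lower, and for T6 against T8 586 were higher and 1378 lower. The replicate numbers were not taken as pairs. Deviations of same-numbered arrays correlated at 0.438 between T2 and T3 and at 0.106 to 0.25 among parental cells, T6 and T8, but at -0.321 to -0.106 between these sets of lines. Whether arrays share a batch under other numbers was not tested.

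These differences changed sign. CDH1 against parental cells was 0.0335 after repeated quantile normalisation, 0.0052 after centring and -0.1034 to 0.0702 with 1 array left out. EPCAM ranged from -0.0124 to 0.53 with 1 array left out. ZEB1 was -0.0060 as the mean over probe sets, and ZEB2 -0.31 (adjusted p = 0.0405) with less specific probe sets left out. Between classes, in both fits, VIM was -0.0630 after repeated quantile normalisation, -0.0143 after centring and -0.10 as the mean over probe sets, and -0.0097 to 0.0127 with 1 array left out. TAGLN was 0.20 with less specific probe sets left out. Over tumours, VIM was -0.0516 without T2 and -0.0005 without T6, TAGLN 0.63 without T3, CDH1 0.31 without T3 and 0.10 without T6, EPCAM -0.11 without T2 and SNAI2 -0.54 without T3. The cause was not tested. Genes near log2 5 are limited by signal over background.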
